A study of Homo sapiens with 8 samples.

Results

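MAP kinase cascades pass signals from cell-surface receptors to the nucleus, and cells limit them with feedback genes that the cascades themselves often induce. Dual specificity phosphatases (DUSPs) remove phosphate from both the threonine and the tyrosine of active MAP kinases, SPRY2 is a Sprouty protein that dampens RAS-ERK signalling below receptor tyrosine kinases, and MAP3K8 is a kinase that activates the ERK pathway downstream of TNF-alpha and toll-like receptors. The 10 genes described here are DUSP1, DUSP2, DUSP4, DUSP5, DUSP6, DUSP7, DUSP10, DUSP16, MAP3K8 and SPRY2. They were taken by name from the platform's gene annotation, which gave 22 probe sets of the 49395 on the array, and none of them was shared with another gene. Where a gene had several probe sets, the brightest on average gave the gene's log2 intensity. Of the 10 genes, 9 were among the 11529 genes of 18132 whose highest log2 value reached 6, and DUSP7 was not.

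The cells were KBM7, a near-haploid chronic myeloid leukaemia line that carries the BCR-ABL1 fusion kinase, an activator of RAS-ERK signalling. Gene-trap cells mutant in JAK2, a kinase of the IFN-gamma receptor, were compared with wild-type (WT) cells, both with IFN-gamma at 100 ng/ml for 6 hours and unstimulated. Gene-trap cells mutant in TNFRSF1A, the gene of the TNF-alpha receptor TNFR1, were compared with WT cells, both with TNF-alpha at 10 ng/ml for 6 hours and unstimulated. Each of the 8 samples was 1 array: 1 for each of 6 conditions and 2 for unstimulated WT, of which replicate 1 was paired with IFN-gamma and replicate 2 with TNF-alpha. How many clones stand behind each mutant is not given in the sources used here.

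With 1 array for every condition but unstimulated WT, differences are described here between single arrays. A gene is called raised or lowered from a 2-fold difference (1 on the log2 scale) between 2 arrays, without a p-value. The spread is the SD over genes between the 2 unstimulated WT arrays, 0.38, and it includes what differs between the IFN-gamma and TNF-alpha experiments. It is therefore a wide bound for a response within 1 experiment. The SD over genes of the WT responses was 0.22 for IFN-gamma and 0.20 for TNF-alpha. Those of the JAK2 and TNFRSF1A mutant responses were 0.15 and 0.12. The WT arrays stand apart from each other: 1.99% of the genes differed 2-fold between them, more than were called for either cytokine, so values against the other WT array are given where they matter. A value counts as background where it lies below the 0.75 quantile of its array's background probe sets, which was 5.76 to 6.04. The brightest JAK2 probe set had log2 values of 5.32 and 5.08 in JAK2 mutant cells with and without IFN-gamma, against 6.81 and 6.28 in the matching WT cells. That of TNFRSF1A had 6.55 and 6.56 in TNFRSF1A mutant cells with and without TNF-alpha, against 9.23 and 9.36 in the matching WT cells. Of 7 genes listed as markers of the labelled myeloid progenitor line, 4 of the 6 measured were above background on all 8 arrays, including CD34 and KIT, and SPI1 was at background on all. The 3 fibroblast genes were at background on all arrays, as were CD2, CD3E, MS4A1, EPCAM and KRT19. The T-cell gene CD3D, the epithelial gene KRT18, the B-cell gene CD79A and the erythroid gene HBB were above it on all 8, and the erythroid gene ALAS2 on 7.

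MAP3K8 and DUSP2 were the genes called in the 2 WT cytokine comparisons, and DUSP6 had the lowest difference among the 10, so the 250 bases before their annotated start sites are printed here, 5′ to 3′ on the gene's strand, from RefSeq's GRCh38.p14. Capitals mark a match to the NF-kappaB consensus, the binding sequence of the transcription factor that TNF-alpha activates. The MAP3K8 window is the first of 3 annotated starts (chr10:30433771-30434020, plus strand), the DUSP2 window is chr2:96145441-96145690 (minus strand) and the DUSP6 window is chr12:89352502-89352751 (minus strand).
MAP3K8: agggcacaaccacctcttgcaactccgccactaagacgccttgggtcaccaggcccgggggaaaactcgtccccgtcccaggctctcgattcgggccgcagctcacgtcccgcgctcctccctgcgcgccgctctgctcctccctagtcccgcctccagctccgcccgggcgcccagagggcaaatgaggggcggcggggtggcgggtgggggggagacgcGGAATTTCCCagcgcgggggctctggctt
DUSP2: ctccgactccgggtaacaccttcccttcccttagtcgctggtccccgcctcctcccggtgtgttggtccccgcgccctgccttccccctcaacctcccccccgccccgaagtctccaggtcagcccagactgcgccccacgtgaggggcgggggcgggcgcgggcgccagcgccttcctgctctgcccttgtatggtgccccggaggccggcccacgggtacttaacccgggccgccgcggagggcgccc
DUSP6: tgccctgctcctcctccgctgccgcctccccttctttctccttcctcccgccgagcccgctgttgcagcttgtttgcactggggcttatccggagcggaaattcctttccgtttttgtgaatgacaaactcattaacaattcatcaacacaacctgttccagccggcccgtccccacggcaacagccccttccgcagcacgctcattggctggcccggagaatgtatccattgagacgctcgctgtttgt
The match in MAP3K8 lies 29 to 20 bases before the start, on the minus strand. Both strands were searched. Windows of the same length were found for 8 of the 10 genes, 13 windows in all, and the NF-kappaB consensus matched in 4 of them, all 3 MAP3K8 windows and that of DUSP7; the first 2 MAP3K8 windows overlap and share 1 match. It matched in 9.96% of 35116 such windows in the table. The IFN-gamma activated sequence, TTCNNNGAA, matched in 0 of the 13 windows and in 6.57% of all. The interferon-stimulated response element core (GAAA, any 2 bases, GAAA) matched in 1, the second MAP3K8 window, and in 3.02% of all. These matches are descriptions of the letters in these windows.

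MAP3K8 was raised by both cytokines in WT cells. With IFN-gamma its log2 level was 7.64 (intensity 200), against 6.60 (97.3) in WT replicate 1, a difference of 1.04 or 2.05-fold. With TNF-alpha it was 8.03 (262), against 6.98 (127) in WT replicate 2, a difference of 1.05 or 2.07-fold. The 2 cytokine-treated WT arrays were the highest of the 8 for this gene, and the gap to the next array, 0.53, was larger than the spread. Each difference was 2.74 and 2.77 times the spread, and 66 and 34 genes had a higher one. MAP3K8 was the only one of the 9 genes raised by IFN-gamma, where 0.607% of all genes were raised and 0 were lowered. Against WT replicate 2 the IFN-gamma difference of MAP3K8 was 0.66, below 2-fold, whereas the TNF-alpha difference against WT replicate 1 was 1.43.

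In the mutants, where 0 of all genes and 0 of the 9 were called with cytokine, MAP3K8 had small differences. JAK2 mutant cells had 6.48 with IFN-gamma against 6.31 unstimulated, a difference of 0.17, and TNFRSF1A mutant cells had 7.11 with TNF-alpha against 6.93 unstimulated, a difference of 0.18. Both lie within the spread, but above the SD over genes of the same mutant response, 0.15 for the JAK2 mutant and 0.12 for the TNFRSF1A mutant. Among the cells given IFN-gamma, MAP3K8 was lowered in the JAK2 mutant against WT, by -1.16, where 2.67% of all genes were lowered. The TNFRSF1A mutant stood -0.92 against WT among the cells given TNF-alpha. The second MAP3K8 probe set was dimmer and gave smaller differences, 0.71 with IFN-gamma and 0.42 with TNF-alpha in WT, neither of them 2-fold. In the mutants it gave 0.12, from values at background, and -0.34.

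The product of NFKB1 holds MAP3K8 inactive in resting cells together with that of TNIP2. NFKB1 had 11.09 with TNF-alpha in WT against 9.28 in WT replicate 2, a rise of 1.80, and TNIP2 had 0.19. With IFN-gamma in WT, NFKB1 and TNIP2 had differences of 0.01 and -0.01. In JAK2 mutant cells they had 0.06 and 0.10 with IFN-gamma, and in TNFRSF1A mutant cells 0.18 and -0.08 with TNF-alpha. NFKB1 was thus raised in 1 of these 4 responses, that of WT to TNF-alpha. In unstimulated cells they stood -0.52 and 0.08 in the JAK2 mutant and 0.12 and 0.37 in the TNFRSF1A mutant against their WT controls. Against WT replicate 2 the JAK2 mutant had -0.14 for NFKB1 and 0.50 for TNIP2. The TNFRSF1A mutant, at 9.40 and 7.88, lay below WT replicate 1, at 9.66 and 7.93, so these values depend on the control.

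DUSP2, a nuclear phosphatase of blood cells, was raised by TNF-alpha in WT cells and had its highest level there. Its single probe set had 8.49 (intensity 361) with TNF-alpha, against 7.29 (156) in WT replicate 2, a difference of 1.21 or 2.31-fold. The other 7 arrays lay between 7.15 and 7.78, and no gap among them was larger than the spread. Together with MAP3K8 it made 2 of 9 genes raised, where 0.312% of all genes were raised; 28 genes had a higher difference. Against WT replicate 1 the difference was 1.08, so both genes were raised against either WT array, as were 0.252% of all genes. TNFRSF1A mutant cells had 7.15 with TNF-alpha and 7.25 unstimulated, a difference of -0.10. Among the cells given TNF-alpha, DUSP2 was lowered in the mutant against WT by -1.34, where 0.919% of all genes were lowered. IFN-gamma gave 0.13 in JAK2 mutant cells (7.78 against 7.65) and -0.25 in WT (7.17 against 7.42), both within the spread.

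**Figure D1:**
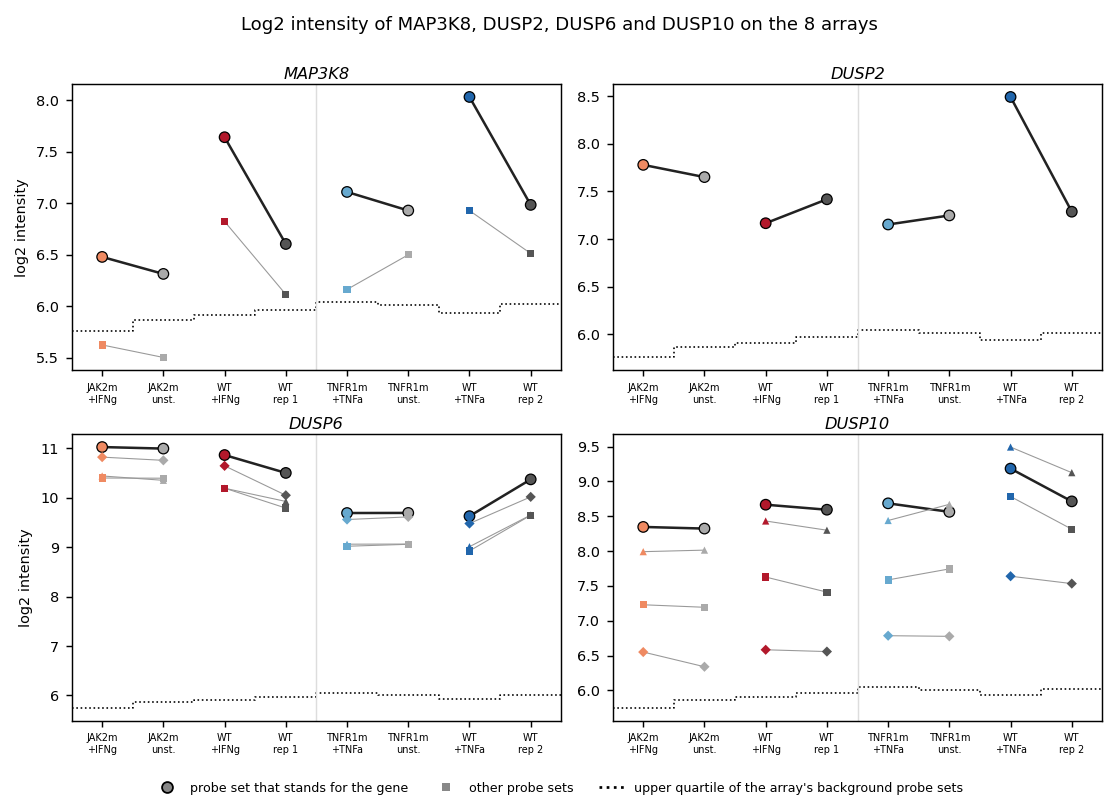
Log2 intensity of MAP3K8, DUSP2, DUSP6 and DUSP10 on the 8 arrays (JAK2m and TNFR1m, JAK2 and TNFRSF1A mutant; unst., unstimulated; rep, replicate), with the probe set that stands for the gene as large outlined circles, other probe sets as small symbols, lines joining cytokine-treated to unstimulated cells, and dots for the upper quartile of background. MAP3K8 is highest in WT with TNF-alpha (8.03) and WT with IFN-gamma (7.64), DUSP2 in WT with TNF-alpha (8.49), and DUSP6 is lowest on the TNFRSF1A mutant arrays and in WT with TNF-alpha (9.63 to 9.69).

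DUSP6, a cytoplasmic phosphatase of ERK whose own transcription depends on ERK activity, was not called at 2-fold in any comparison, and its 4 probe sets gave the same sign in each WT response. In WT it stood at 9.63 (intensity 791) with TNF-alpha, against 10.37 (1326) in WT replicate 2, a difference of -0.74. Only 3 of the 11529 genes had a lower value in that comparison, although it reached 1.5-fold and not 2-fold; 0.0781% of genes were 1.5-fold lower. The 4 probe sets gave -0.74 to -0.54, and -0.92 to -0.57 against WT replicate 1. TNFRSF1A mutant cells had 9.69 both with TNF-alpha and unstimulated, and the probe sets gave -0.05 to -0.0020.

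With IFN-gamma the WT difference of DUSP6 had the other sign. WT cells had 10.87 (1865) with IFN-gamma, against 10.50 (1451) in WT replicate 1, a difference of 0.36 that lies within the spread. The 4 probe sets gave 0.27 to 0.60, and 0.49 to 0.63 against WT replicate 2. JAK2 mutant cells had 11.03 with IFN-gamma and 11.00 unstimulated, and the probe sets gave 0.00 to 0.09. DUSP6 also stood apart from WT, below 2-fold, in the unstimulated cells of each mutant. Against the own control, 9.17% of all genes differed as much or more in the JAK2 mutant. In the TNFRSF1A mutant 2.52% did. The JAK2 mutant stood at 11.00 (2042) against 10.50 in WT replicate 1, with 0.43 to 0.71 over the probe sets and 0.62 to 0.75 against WT replicate 2. The TNFRSF1A mutant stood at 9.69 (828) against 10.37 in WT replicate 2, with -0.68 to -0.41 over the probe sets and -0.86 to -0.44 against WT replicate 1. Unstimulated WT lay between the mutants at 10.44 ± 0.09 (SD, n = 2). Across the 8 arrays the only gap larger than the spread, 0.68, lay between WT replicate 2 and the unstimulated TNFRSF1A mutant. The 4 arrays of the TNF-alpha experiment, at 9.63 to 10.37, also all lay below the 4 of the IFN-gamma experiment, at 10.50 to 11.03, as for 22.5% of all genes. The gap parted 3 arrays, the 2 TNFRSF1A mutant arrays and WT with TNF-alpha at 9.63 to 9.69, from the 5 others at 10.37 to 11.03.

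**Figure D2:**
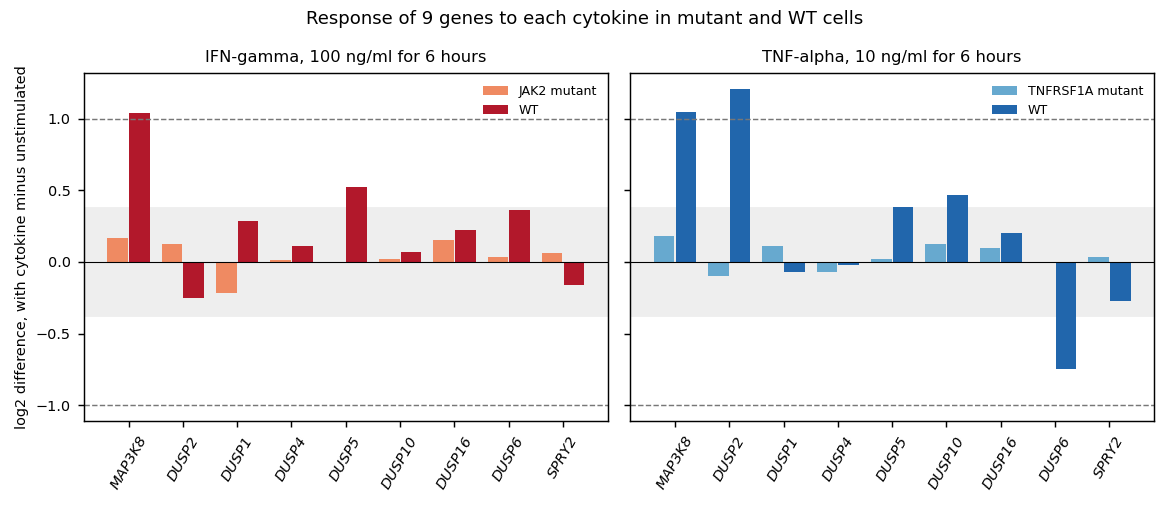
Log2 difference with cytokine minus unstimulated for 9 genes, with IFN-gamma on the left (JAK2 mutant beside WT) and TNF-alpha on the right (TNFRSF1A mutant beside WT); each bar is 1 pair of arrays, the grey band is the spread of ±0.38 and the dashed lines mark 2-fold. MAP3K8 passes 2-fold with both cytokines in WT and DUSP2 with TNF-alpha, DUSP6 lies at -0.74 with TNF-alpha, and every mutant bar lies within the band.

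DUSP5, a nuclear phosphatase of ERK, and DUSP1 and DUSP4, nuclear phosphatases of several MAP kinases, were not called for either cytokine. DUSP5 had 9.33 with IFN-gamma in WT against 8.80 in WT replicate 1, a difference of 0.52, but -0.02 against WT replicate 2. It had 9.73 with TNF-alpha in WT against 9.35 in WT replicate 2, a difference of 0.38, and 0.93 against WT replicate 1. The WT arrays themselves differed by 0.55 for DUSP5, so the IFN-gamma value rests on replicate 1, while WT with TNF-alpha was the highest of the 8 arrays. The 4 mutant arrays of DUSP5 lay between 8.997 and 9.02, with differences of -0.01 for IFN-gamma and 0.02 for TNF-alpha. DUSP4 had differences of 0.11 and -0.02 with the 2 cytokines in WT. The 4 arrays of the TNF-alpha experiment had 8.87 to 9.09 and the 4 of the IFN-gamma experiment 8.27 to 8.58, and 17.3% of all genes were likewise higher on all 4 arrays of the TNF-alpha experiment. DUSP1 had 1 of 4 probe sets above background. That probe set ran from 6.43 to 6.88 over the arrays, with 0.29 for IFN-gamma and -0.07 for TNF-alpha in WT. Its levels in the 2 unstimulated WT arrays were 6.60 and 6.63, and no neighbours in its order differed by more than the spread.

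DUSP10 and DUSP16 act on the stress-activated kinases JNK and p38. All 4 DUSP10 probe sets were above background and gave values of one sign for TNF-alpha in WT, 0.11 to 0.47, with 9.18 against 8.71 in WT replicate 2 for the brightest. Against WT replicate 1 they gave 0.59 to 1.37. With IFN-gamma they gave 0.03 to 0.22 in WT and -0.02 to 0.21 in JAK2 mutant cells. The probe sets disagreed on the WT pair. The brightest had 8.71 in replicate 2 and 8.59 in replicate 1, while the other 3 stood 0.83 to 0.98 higher in replicate 2. In the TNFRSF1A mutant given TNF-alpha the 4 stood -1.20 to -0.50 against WT given TNF-alpha. Unstimulated, the mutant already stood -0.76 to -0.15 against WT replicate 2, and -0.03 to 0.37 against WT replicate 1. DUSP16 had 0.22 and 0.20 with the 2 cytokines in WT. Its brightest probe set was at 7.65 and 7.503 on the JAK2 mutant arrays with and without IFN-gamma and at 8.55 and 8.45 on the TNFRSF1A mutant arrays with and without TNF-alpha, against 7.99 to 8.30 on the 4 WT arrays. Neither mutant overlapped WT, but the gaps in this order did not exceed the spread. Both JAK2 mutant arrays lay below all 4 WT arrays for 20.1% of all genes, DUSP10 and MAP3K8 among them, and above for 29.1%, DUSP6 among them. Both TNFRSF1A mutant arrays lay above the 4 WT arrays for 15.2%, DUSP4 among them. The other 2 DUSP16 probe sets were at background on some arrays, and one of them had 5.63 on both JAK2 mutant arrays, against 5.63 in WT replicate 1 and 6.38 in WT replicate 2.

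DUSP7, a cytoplasmic phosphatase of ERK, lay at background on all 8 arrays, at 4.14 to 4.66, so no difference is read from it.

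SPRY2 had no call for either cytokine against its own control, with -0.16 for IFN-gamma and -0.27 for TNF-alpha in WT. The WT arrays differed by -0.77, with 7.82 in replicate 2 and 8.59 in replicate 1, and its values depended on the control. IFN-gamma gave 0.60 against replicate 2, the other sign, and TNF-alpha gave -1.04 against replicate 1, the same sign and past 2-fold. SPRY2 stood at 8.18 and 8.12 on the JAK2 mutant arrays and 8.46 and 8.42 on the TNFRSF1A mutant arrays, with and without cytokine.

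**Figure D3:**
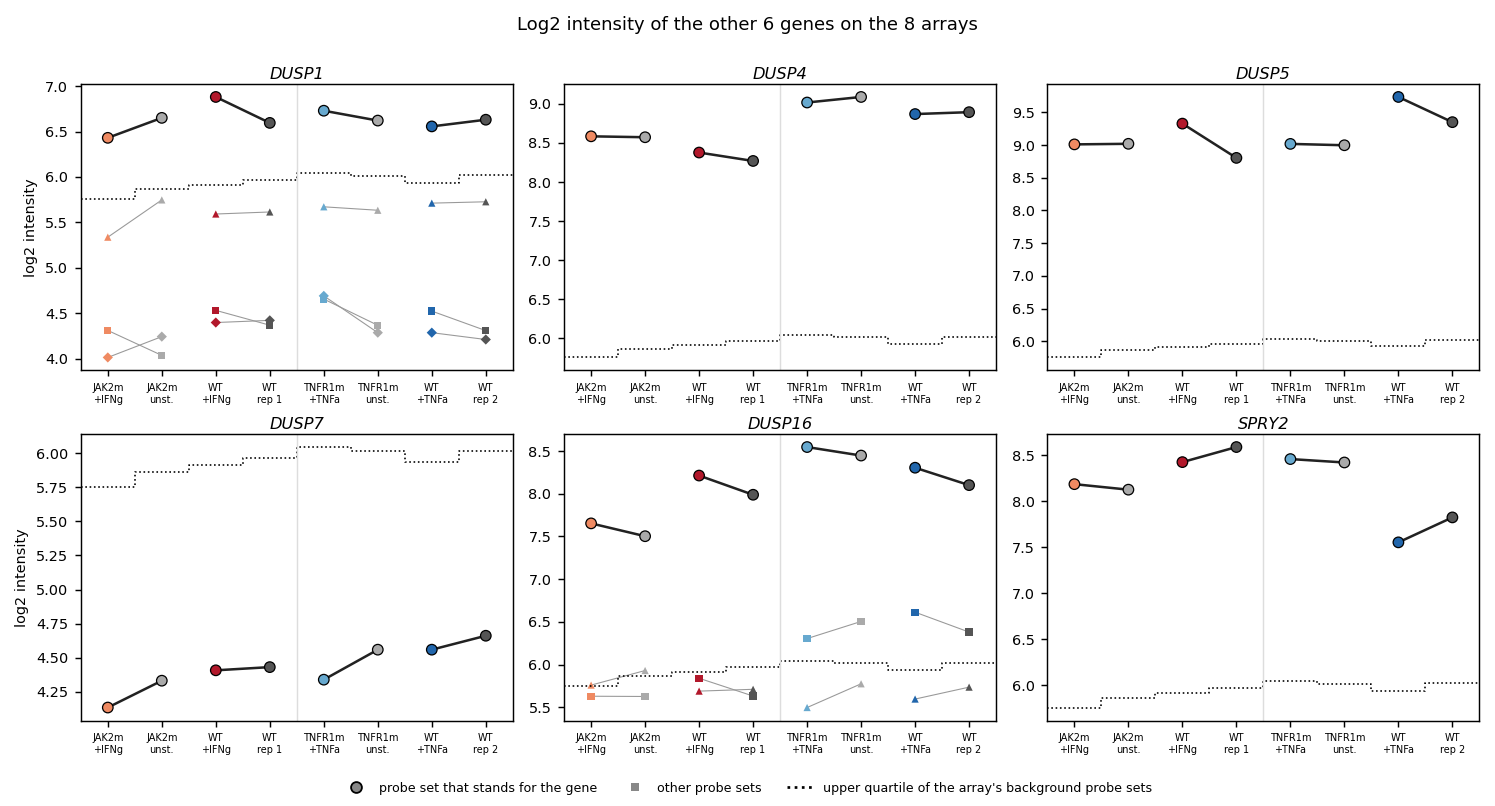
Log2 intensity of DUSP1, DUSP4, DUSP5, DUSP7, DUSP16 and SPRY2 on the 8 arrays, with symbols, lines and names as for the first 4 genes. DUSP7 lies at background on all arrays, DUSP4 is higher in the TNF-alpha experiment (8.87 to 9.09) than in the IFN-gamma experiment (8.27 to 8.58), and SPRY2 has its lowest levels in WT with TNF-alpha (7.55) and WT replicate 2 (7.82).

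In unstimulated cells, 0 of the 9 genes differed 2-fold from the WT control in either mutant, where 2.13% of all genes did in the JAK2 mutant and 0.98% in the TNFRSF1A mutant. The WT pair gave 0 of 9 as well. At 1.5-fold the JAK2 mutant had 0 of 9, where 6.16% of all genes passed. The TNFRSF1A mutant had 2 of 9 at 1.5-fold (DUSP6 and SPRY2), where 3.83% of all genes passed. The WT pair had 2 (DUSP4 and SPRY2), where 11.2% passed. The JAK2 mutant had 0.49 for DUSP6 and -0.49 for DUSP16, and -0.29 for MAP3K8. Against WT replicate 2 these were 0.62, -0.60 and -0.67, so the signs held with either control. DUSP10 also kept its sign, with -0.29 to -0.22 over its 4 probe sets and -1.19 to -0.39 against WT replicate 2. For DUSP16 the mean of its 3 probe sets gave -0.09 in place of -0.49, and 1 of them, mostly at background, gave 0.22. SPRY2, DUSP4 and DUSP5 did not keep theirs: SPRY2 had -0.46 and 0.30, DUSP4 0.30 and -0.32, and DUSP5 0.22 and -0.33 against WT replicates 1 and 2. The TNFRSF1A mutant had -0.68 for DUSP6, 0.60 for SPRY2 and 0.35 for DUSP16 against WT replicate 2. Against WT replicate 1 these were -0.81, -0.17 and 0.46. At 1.5-fold against both WT arrays DUSP6 alone of the 9 was lower in the TNFRSF1A mutant, where 0.798% of all genes were. The WT responses and these baseline differences share the WT arrays, so they are not independent of each other. In these bulk samples fewer expressing cells and less RNA per cell cannot be told apart.

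Other readings also differed between these arrays. RNA quality can be read from how much brighter the 3′ probe set of actin is than the 5′ one, and this ratio was 6.47 and 5.74 in JAK2 mutant cells with and without IFN-gamma, against 4.81 and 4.41 in the matching WT cells. It was 5.53 and 4.51 in TNFRSF1A mutant cells with and without TNF-alpha, against 4.81 and 3.27 in the matching WT cells. The 5 compared myeloid progenitor markers had medians of -0.21 in the unstimulated JAK2 mutant and 0.04 in the unstimulated TNFRSF1A mutant. They went both ways. In the JAK2 mutant MPO had 0.78, CEBPA 0.69, PTPRC -0.21, KIT -0.70 and CD34 -0.74. In the TNFRSF1A mutant CEBPA had 1.01, KIT 0.09, CD34 0.04, PTPRC -0.12 and MPO -0.32, the last from a value at background (5.82). These values depend on the control, as replicate 2 stood -0.83 for CEBPA and -0.43 for CD34 against replicate 1 in WT. CEBPA was 8.44 in this mutant, against 7.43 in WT replicate 2 and 8.26 in WT replicate 1. CD34 was 7.76, against 7.72 and 8.15. CD3D had -0.50 in the JAK2 mutant and -1.17 in the TNFRSF1A mutant. The part of these readings in the baseline differences was not tested.

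**Figure D4:**
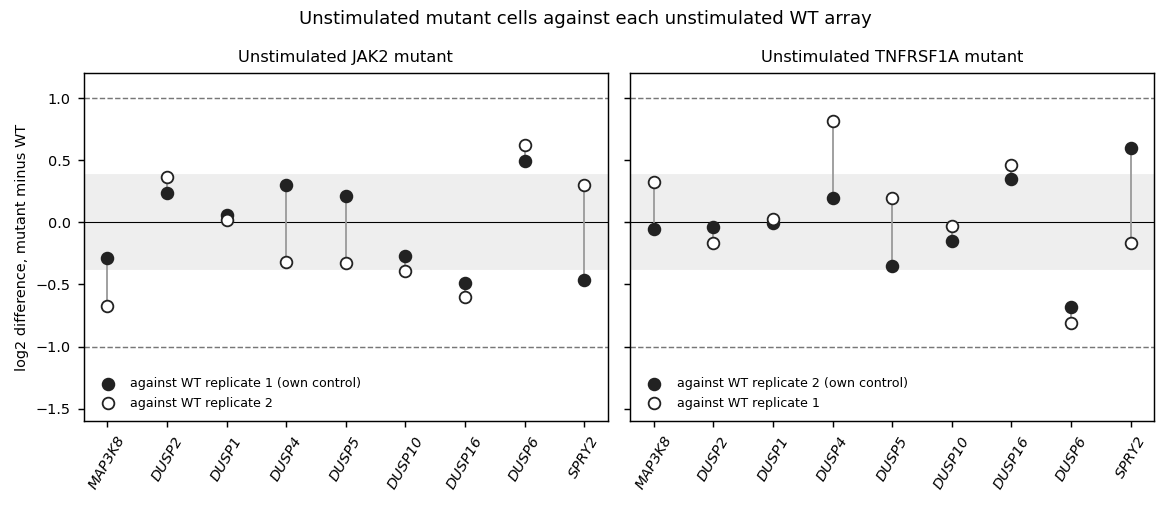
Log2 difference of unstimulated mutant minus unstimulated WT for 9 genes, in the JAK2 mutant (left) and the TNFRSF1A mutant (right); filled points use the WT array of the same experiment, open points the other WT array, the grey band is the spread of ±0.38 and the dashed lines mark 2-fold. DUSP6 lies above 0 in the JAK2 mutant (0.49 and 0.62) and below 0 in the TNFRSF1A mutant (-0.68 and -0.81) with either control, while SPRY2 changes sign.

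The rest of the pathway was read from 7 lists of 72 genes, of which 55 were compared. With IFN-gamma 0 of the 55 were called in WT, where 0.607% of all genes were. With TNF-alpha in WT 2 were raised and 0 lowered, where 0.312% of all genes were raised and 0.00867% lowered: NFKB1, and IER3, an early response gene that protects against cell death, with 10.48 against 7.81 in WT replicate 2 (2.67). In the mutants 0 of the 55 were called with either cytokine, and 0 of all genes were. The 2 other phosphatases of the same class, DUSP8 and DUSP9, had -0.06 and 0.02 with TNF-alpha and -0.25 and -0.05 with IFN-gamma in WT. The 11 compared atypical dual specificity phosphatases had medians of 0.03 (TNF-alpha) and 0.00 (IFN-gamma) in WT, and the 4 compared Sprouty and SPRED genes 0.04 and -0.12. The 9 compared genes of the ERK cascade had medians of -0.02 and -0.06, and the 14 of the JNK and p38 cascade 0.10 and -0.03. Over all genes the medians were 0.01 and -0.02. The 13 compared transcripts used as ERK output had medians of 0.13 and -0.04, and with TNF-alpha they ran from -0.10 to 2.67. Of these EGR1, an immediate early factor, had 0.23 with TNF-alpha and 0.15 with IFN-gamma. Against WT replicate 1 its TNF-alpha value was -0.53, the other sign. The 9 genes themselves had medians of 0.20 with TNF-alpha and 0.22 with IFN-gamma.

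At baseline, 3 of the 55 were lowered and 0 raised in the JAK2 mutant, where 1.91% of all genes were lowered. DUSP23, an atypical phosphatase, had 8.33 against 9.52 in WT replicate 1 (-1.19), and IER3 had 6.59 against 8.50 (-1.91). EGR3, an immediate early factor, had 6.84 against 7.87 (-1.03), but -0.21 against WT replicate 2. Against that array DUSP23 had -0.88. In the TNFRSF1A mutant 0 of the 55 were called, where 0.98% of all genes were. The 13 ERK output transcripts had medians of -0.12 in the JAK2 mutant and 0.04 in the TNFRSF1A mutant. MAFF, a small partner of AP-1 factors, joined IER3 and EGR3 among the 3 ERK output transcripts lowered in the JAK2 mutant against WT when both had IFN-gamma (-1.10), where 2.67% of all genes were lowered. IER3 (-2.50) and NFKB1 (-1.50) were the 2 of 55 lowered in the TNFRSF1A mutant against WT when both had TNF-alpha, where 0.919% of all genes were.

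For the 5 genes whose level spanned at least 1 on the log2 scale, the 3 compared genes with the most similar profile over the 8 arrays were taken, by the root mean square difference after centring each gene on its own mean. For MAP3K8 they were BCL3, a nuclear member of the IkappaB family (0.17), LACTB (0.21) and IFIH1, a sensor of viral RNA (0.21). In WT, BCL3 had differences of 0.64 (IFN-gamma) and 0.99 (TNF-alpha), and IFIH1 of 1.08 and 0.90. For DUSP2 they were IER5, an early response gene (0.19), NFE2L3 (0.19) and PLAU, the urokinase gene (0.19), with 1.08, 1.33 and 0.70 for TNF-alpha in WT. For DUSP6 they were SOWAHD (0.18), TRIM6 (0.18) and ATP5MC1 (0.19), with -0.38, -0.29 and -0.13 for TNF-alpha in WT. For DUSP16 they were ARID5A (0.07), ZBTB21 (0.08) and ZNF117 (0.10), and for SPRY2 RASGRP2, an activator of RAP and RAS GTPases (0.11), BACE1 (0.11) and DPH6 (0.13).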

How the data were processed

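RNA of the 8 samples was hybridised to 1-colour Affymetrix arrays, 1 array per sample. Per the submitters' processing notes, the authors ran RMA with Affymetrix Expression Console 1.1. The deposited file gives 1 linear intensity per probe set and array, and the log2 values used here were taken from these deposited intensities. The linear scale was inferred from the values, which ran up to 32904.6. RMA makes the arrays' distributions equal, so a shift of most genes would not be seen. No pseudocount was added, since the lowest intensity was 6.72. Precision is limited by the number of arrays.

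Of the 49395 probe sets, 44994 had 1 gene in the platform annotation, 1832 had several and 2569 stay unnamed here; symbols were updated through gene identifiers against RefSeq's GRCh38.p14. Differences were computed with numpy 2.4.6 and pandas 2.3.3 over the 11529 genes whose highest log2 value was at least 6. Background is the upper quartile of 23 background probe sets of each array. limma 3.58.1 (R 4.3.3) gave an alternative fit of the 7 conditions, with 1 residual degree of freedom, adjusted by Benjamini-Hochberg over all compared genes. It was tested on simulated data. These had the same noise in every gene and no offset between the experiments, so they do not show how the fit behaves on these arrays. Nothing in the labels says that the 2 WT samples came from separate cultures, so p-values measure only the spread between them.

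The 10 genes and the pathway lists were chosen with earlier results of these data known. Named genes are all 10 members, the targeted genes, NFKB1 and TNIP2, list genes past 2-fold (at most 4 per list and comparison) and the 3 most similar profiles of each member that spans 1 on the log2 scale; DUSP8, DUSP9, EGR1, CEBPA and the cell markers were named outside this rule, after their values were seen. Promoter windows came from RefSeq. Alternatives were other thresholds, filters, normalizations, gene summaries, control arrays and the limma fit.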

Additional observations from a re-analysis of the deposited data

Results flagged for a closer look

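The response of DUSP2 to TNF-alpha had opposite signs in the 2 genotypes, -0.10 in TNFRSF1A mutant cells and 1.21 in WT, so that the WT response was 1.30 higher. The response of DUSP5 to IFN-gamma was -0.01 in JAK2 mutant cells and 0.52 in WT, a WT response 0.53 higher, but against WT replicate 2 the WT response of DUSP5 was -0.02. Both mutant values lay within the SD over genes of their comparison, 0.12 for the TNFRSF1A mutant and 0.15 for the JAK2 mutant. Their signs are therefore not read as reversed responses. Each response is 1 pair of arrays. In the limma fit, which takes the mean of both WT arrays as control, the differences between the genotypes were 1.24 for DUSP2 (limma adjusted p = 0.99996) and 0.26 for DUSP5 (limma adjusted p = 0.99998). Pairs of opposite sign in which both values lay within the spread of 0.38 were not taken up. Pairs of the same sign were not taken up either, although some differed more than DUSP5 did. For MAP3K8 the WT response minus the mutant response was 0.87 with each cytokine, and for DUSP6 it was -0.74 with TNF-alpha.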

How the results depend on the processing

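Of 77 alternative counts of called members, 67 stayed within 1.5 times the reported count. Most of the 77 belong to comparisons whose reported count was 0, where a count of 0 is taken as unchanged. Most of the counts that moved belong to the 2 WT cytokine comparisons, the only ones with a call. The share that stayed therefore says little about how stable the calls are. The 1 member raised by IFN-gamma in WT, MAP3K8, became 0 with the mean of all probe sets, at 3-fold, with the mean of both WT arrays as control, with WT replicate 2 as control and by limma's adjusted p. The 2 raised by TNF-alpha in WT became 1 (DUSP2) with the mean of all probe sets, and 0 at 3-fold and by limma. With WT replicate 1 as control they were 3, DUSP2 and MAP3K8 raised and SPRY2 lowered. At 1.5-fold the TNFRSF1A mutant at baseline had 2 (DUSP6 lower, SPRY2 higher) and the WT pair 2 (DUSP4 higher, SPRY2 lower), where the reported counts were 0. With the other WT array as control both mutants at baseline stayed at 0. The loess and further quantile normalizations changed no count of members.

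Of 434 alternative values of single members 408 moved by less than the spread and 26 by more, and 16 of the 26 came from the other WT array as control. Leaving out probe sets named _x_at and raising values to the background bound gave 63 values each that could not move. Neither setting touches the probe sets that stand for the members. In the 7 comparisons that were given alternatives, the called values were only MAP3K8 with each cytokine and DUSP2 with TNF-alpha in WT. These called values changed sign in 0 cases. The comparisons of mutant with WT cells given the same cytokine, where MAP3K8 and DUSP2 were called lowered, were given no alternatives. Uncalled values such as those of SPRY2, DUSP4 and DUSP5 did change sign with the other WT array. By limma 0 members had an adjusted p under 0.05 in the 6 comparisons; the lowest adjusted p was 0.813. Before adjustment, limma put 1 member under 0.05 for IFN-gamma in WT (MAP3K8), 3 for TNF-alpha in WT (DUSP2, MAP3K8 and DUSP6), 1 for the TNFRSF1A mutant at baseline (DUSP6) and 0 for the JAK2 mutant at baseline and both mutant responses. That fit assumes that every single array varies as the WT pair does.

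Over all genes the counts ran from 1 to 271 for IFN-gamma in WT (reported 70), from 1 to 243 for TNF-alpha in WT (37), from 19 to 755 for the JAK2 mutant (246) and from 5 to 442 for the TNFRSF1A mutant (113) at baseline, and from 24 to 1289 for the WT pair (229). The responses of the JAK2 and TNFRSF1A mutants reached 44 and 5 at 1.5-fold (0 and 0). The lowest counts of the WT responses and mutants at baseline were limma's. The cause of these moves was not tested. No paired analysis was possible because the groups compared have 1 array each and share fewer than 2 replicate numbers.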
